A study of Mus musculus with 18 samples.

Results

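The cytosolic ribosomal protein genes encode the protein components of the large (Rpl) and small (Rps) subunits of the ribosome outside mitochondria. Members were the genes whose symbols followed the Rpl or Rps naming pattern, plus Rplp0, Rplp1, Rplp2 and Rpsa, with the Rps6k kinases and symbols ending in -ps left out. The rule used no measured value and gave 84 of the 23420 genes in each file, 51 of the large and 33 of the small subunit. Their transcripts were measured by RNA sequencing in 18 libraries of splenic B cells, purified by bead-based negative selection, from MRL/lpr mice, an autoimmune strain with the Fas lpr mutation. Each of the 6 groups had 3 libraries.

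In one arm every mouse was female and Tlr7-/-. Its cells carried either Tlr997, a TLR9 whose intracellular TIR domain comes from TLR7, or the allele combination titled Tlr9het (heterozygous for Tlr9). The titles and the study's account of this comparison give Tlr9+/- for the latter, which was followed, although a protocol text writes Tlr9-/-. These cells were left unstimulated or given 10 µg/ml of CpG oligonucleotide, a TLR9 agonist, for 4 h. In the other arm every mouse was male and Tlr9-/-, with Tlr779, a TLR7 that carries the TIR domain of TLR9. Those cells were left unstimulated or given 5 µg/ml of CL097, a TLR7 agonist, for 4 h. Mice were 5 to 7 weeks old per the labels, while the study's methods give 5 weeks for the females and 5 to 7 weeks for the males. Because sex, genotype and agonist, and possibly age, changed together between the arms, the arms were not tested against one another.

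Each ribosome holds a single copy of nearly every one of these proteins, and cells adjust the supply of the whole set mainly through translation of the mRNAs. Vertebrate ribosomal protein mRNAs start with a run of pyrimidines, the 5′ terminal oligopyrimidine (TOP) motif, through which the kinase mTOR and the RNA-binding protein LARP1 control them. A B cell given a TLR agonist leaves the resting state, grows and makes new ribosomes.

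The start sites of members that moved in either direction are shown because a TOP-like run would lie at the start. Each sequence runs from 40 bases before to 25 bases from the RefSeq start site onward (GRCm38.p6). Capitals mark the longest run of at least 8 C or T letters beginning with C within 30 bases of the start on either side. Of runs of equal length only the first is marked. Rpl13a (chr7:45128721-45128785, minus strand), Rps9 (chr7:3704001-3704065, plus) and Rps4x (chrX:102189367-102189431, minus) had lower values after CpG. Rps27l (chr9:66946046-66946110, plus), Rpl7l1 (chr17:46782632-46782696, minus) and Rpl22l1 (chr3:28805468-28805532, plus), paralogs of Rps27, Rpl7 and Rpl22, had higher values.
Rpl13a: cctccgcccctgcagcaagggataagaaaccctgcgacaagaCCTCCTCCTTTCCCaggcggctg
Rps9: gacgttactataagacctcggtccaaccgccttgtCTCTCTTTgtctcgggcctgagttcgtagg
Rps4x: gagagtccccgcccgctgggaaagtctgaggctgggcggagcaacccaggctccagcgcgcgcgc
Rps27l: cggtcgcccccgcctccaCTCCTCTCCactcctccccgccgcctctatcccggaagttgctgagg
Rpl7l1: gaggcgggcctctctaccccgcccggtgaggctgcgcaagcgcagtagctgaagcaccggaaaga
Rpl22l1: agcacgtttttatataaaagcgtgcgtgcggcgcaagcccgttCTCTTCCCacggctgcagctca

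A run of this kind stood in the Rpl13a and Rps9 windows, and also in those of Rps27l and Rpl22l1. The windows of Rps4x and Rpl7l1 had none by these letters. The Rps27l run lay wholly upstream of the annotated start and so outside the transcript of that entry. A further RefSeq start of Rps27l had no such run. Over the 75 promoter entries that matched 63 members, such a run was found in 48.0%, against 18.2% of all 32851 RefSeq promoter entries. From 250 bases before to 50 after the same starts, the ETS-type motif CCGGAAG on either strand was in 36.0% of member entries and 8.9% of all. The YY1-type motif AAGATGG was in 16.0% and 6.3%, the GC box GGGCGG in 60.0% and 35.7%, and the TATA box TATAAA in 9.3% and 13.6%. In GENCODE M21, 22 members (26.5%) had a protein-coding transcript beginning with C and a further 4 pyrimidines, as 1121 of 21877 protein-coding genes (5.1%) did. A gene was counted if any of its protein-coding transcripts began so. Annotated starts were used, so a member that was not counted may still have the motif. A match is a description of the letters and not a binding site, and entries of one gene share sequence.

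The level of the members set how well each could be read. Values were log2 CPM (read counts scaled to library size) to which the authors had applied quantile normalization. They summed to between 991992 and 1004412 CPM per library. Shares given here are thus shares of normalized values and not the amount of RNA per cell. A lower share and a larger total of other transcripts cannot be told apart. In the same way, fewer cells of a type and less RNA per cell cannot be told apart in bulk samples. Over the 18 libraries, 67 of 84 members had a mean above 8 log2 CPM, and their median SD within groups was 0.083, against 0.089 for the 661 other genes above that level. Per kilobase of 1 GENCODE transcript for each gene, the highest mean levels were those of Rps12 (11.17), Rpl4 (11.13) and Rplp1 (11.08 log2 CPM per kilobase).

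A few members were far below the rest. Rpl26 was between -5.11 and -3.34 log2 CPM, Rpl3l between -5.35 and -2.63, Rpl39l between -5.41 and -1.13, and Rpl10l, a retrocopy of Rpl10, at -5.05 in all libraries. These 4 failed the filter (a value above 0 log2 CPM in at least 3 of the fitted libraries), so 80 members were tested in each arm. Rpl34, Rps27, Rpl30 and Rps4y2 passed at mean levels of 1.94, 1.50, 1.49 and 1.05 log2 CPM. Rpl26, Rpl30, Rpl34 and Rps27 are constitutive ribosome components, and rows at this level are read here as uncertain. Of the 75-base stretches in their transcripts, the share found in no other gene was 42.5% for Rpl26, 59.9% for Rpl30, 58.6% for Rpl34 and 1.5% for Rps27. These stretches have the length of a read. Across members the median share was 52.6%, 79 members shared at least 1 stretch with another gene, and 34 were unique over less than 50% of their length. Rps4y2 is listed by RefSeq as the transcribed pseudogene Rps4l.

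The summed share of the normalized values of each library showed the set as a whole. The 84 members made up 6.53%, 6.78% and 6.94% of summed CPM in unstimulated Tlr9het libraries and 5.69%, 5.81% and 5.64% with CpG. In Tlr997 they made up 7.23%, 7.41% and 6.76% unstimulated and 5.94%, 6.04% and 6.03% with CpG. In Tlr779 the shares were 6.94%, 7.41% and 6.83% unstimulated and 6.62%, 7.04% and 6.49% with CL097. In both CpG comparisons all stimulated libraries were below all unstimulated ones, with group means 0.846 times (Tlr9het) and 0.842 times (Tlr997) the unstimulated mean, whereas with CL097 the groups overlapped (0.951 times). Replicate numbers were taken as pairs in Tlr779, which the sample titles do not state. On that reading the share with CL097 was lower in 3 of 3 pairs, with differences of -0.32, -0.37 and -0.34 percentage points. The median log2 CPM over members differed by -0.06, -0.13 and -0.03. With 3 pairs no test was made on these differences.

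**Figure D1:**
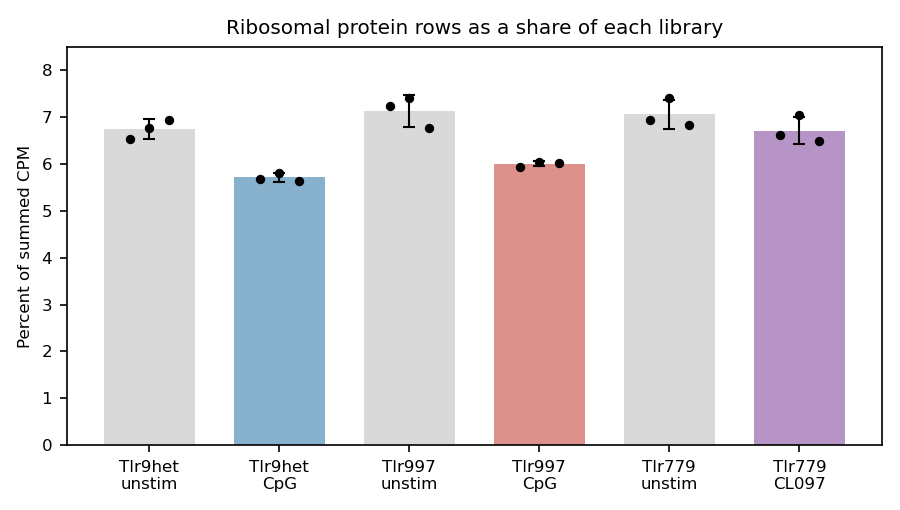
Share of summed normalized CPM (percent, y axis from 0) taken by the 84 ribosomal protein rows in each of the 6 groups (x axis). Points are libraries, bars the mean and error lines the SD (n = 3). Group means were 6.75% and 5.71% in Tlr9het without and with CpG, 7.13% and 6.003% in Tlr997, and 7.06% and 6.72% in Tlr779 without and with CL097.

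In Tlr9het cells with CpG, many ribosomal protein mRNAs had a slightly lower relative level, while paralogs and a few low-level members rose. Among 80 members tested, 5 were called lower and 8 higher (limma, Benjamini-Hochberg adjusted p under 0.05, log2 fold change beyond 0.5 in size). Of all 11494 genes tested, 28.2% were called lower and 29.7% higher, so the members' counts lay below the background in both directions. With the adjusted p alone, 47 members were lower and 13 higher, against 35.3% and 37.3% of all genes. The median log2 fold change over members was -0.20 and that over all genes 0.04. Of the 67 members above 8 log2 CPM, 46 (68.7%) were lower by the adjusted p, against 44.5% of the 661 other genes above that level, and 2 were higher. The 3 libraries with CpG lay wholly below the 3 without for 45 of 80 members (background 38.5% of genes) and wholly above for 16 (background 41.6%).

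The response in Tlr997 cells, which were separate libraries, had a like shape. Here 6 members were called lower and 7 higher, where 26% and 29.6% of all genes were called. With the adjusted p alone 49 were lower and 10 higher (background 33.1% and 38%). The median was -0.22 over members and 0.07 over all genes, and 47 of the 67 members above 8 log2 CPM (70.1%) were lower by the adjusted p, against 41.6% of other genes at that level. Groups did not overlap for 46 members that were lower (background 33.3%) and 10 that were higher (background 37.9%). Unstimulated replicate 3 of Tlr997 moved this count, since without it 10 members were called lower, with Rpl12, Rpl37a, Rps4x and Rps9 gained, and 6 higher. 

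In both genotypes 41 of 80 members were lower by the adjusted p, where 30.4% of all genes were. For calls in both, the background was 23.6% lower and 25.6% higher, so the members' 3 and 7 lay below it. Past the fold threshold in both were, among others, Rpl13a and Rps20 on the lower side, and on the higher side Rpl34, Rpl30, Rps4y2, Rps27l, Rpl7l1, Rps27 and Rpl29. Over the 80 members the log2 fold changes of these comparisons, which share no library, had a Pearson's r of 0.96 and a Spearman's rho of 0.82, as a description across genes, which are not independent replicates.

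Rpl13a, a large subunit protein also known for a role outside the ribosome in the silencing of inflammatory mRNAs, was called lower in both. It was at 10.55, 10.66 and 10.72 log2 CPM in unstimulated Tlr9het and at 9.97, 9.92 and 9.87 with CpG. In Tlr997 it was at 10.78, 10.76 and 10.53 unstimulated and at 9.95, 9.92 and 10.04 with CpG. All stimulated libraries were lower than all unstimulated ones, by -0.72 ± 0.07 (SE, adjusted p = 7.37e-07, limma) in Tlr9het and -0.72 ± 0.07 (adjusted p = 8.64e-07, limma) in Tlr997. Rpl13a (chromosome 7, 45125558 to 45128761, minus strand, GRCm38) hosts the small nucleolar RNAs Snord32a, Snord33, Snord34 and Snord35a in the annotation. In all, 30 members held 58 small nucleolar RNA genes, and among the 76 annotated members above 5 log2 CPM the median log2 fold change with CpG in Tlr9het was -0.26 for 29 hosts and -0.16 for the other 47. The corresponding medians in Tlr997 were -0.28 and -0.19.

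Rps20, a protein of the small subunit head, was also called lower in both. Its values in unstimulated Tlr9het were 9.38, 9.65 and 9.63 log2 CPM, against 9.09, 9.07 and 8.97 with CpG, and in Tlr997 they were 9.89, 9.82 and 9.69, against 9.102, 9.13 and 9.09. The groups did not overlap. The log2 fold change was -0.51 ± 0.07 (SE, adjusted p = 3.06e-05, limma) in Tlr9het and -0.70 ± 0.07 (adjusted p = 1.55e-06, limma) in Tlr997. In Tlr9het this was just past the fold threshold, and leaving out unstimulated replicate 2 or 3, or CpG replicate 3, took it to -0.46, -0.47 and -0.47 and out of the calls.

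Other called decreases were close to the threshold of 0.5. In Tlr9het they were Rps9 (-0.53 ± 0.06, SE) and the X-linked Rps4x (-0.51 ± 0.06), whose values in Tlr997 were -0.47 and -0.49. In Tlr997 they were Rps21 (-0.63 ± 0.10), the X-linked Rpl39 (-0.58 ± 0.11) and Rps23 (-0.54 ± 0.05), named here after its values were seen, with -0.41, -0.33 and -0.47 in Tlr9het. Rps23 sits at the decoding center and Rpl39 lines the exit tunnel of the nascent chain. The difference between the responses did not pass the test for any of these 5 genes (adjusted p from 0.46 to 0.957, limma). Rps9 was at 10.44, 10.42 and 10.51 log2 CPM in unstimulated Tlr9het and 9.95, 9.96 and 9.89 with CpG, and at 10.49, 10.55 and 10.31 and then 9.91, 10.04 and 9.98 in Tlr997, with no overlap in either. Of these members, Rps4x was not called in Tlr9het without unstimulated replicate 2 or CpG replicate 3, and Rps9 without unstimulated replicate 3, all with log2 fold changes between -0.50 and -0.47. Rpl39 was not called in Tlr997 without unstimulated replicate 1 (-0.49).

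**Figure D2:**
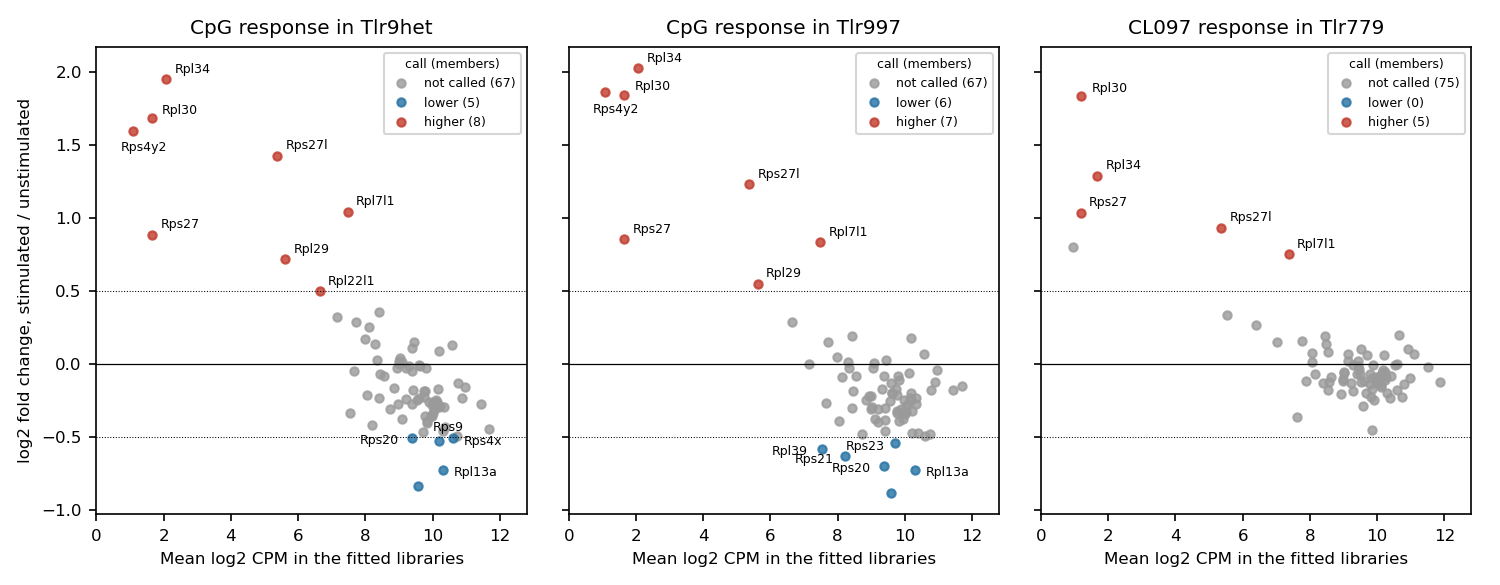
log2 fold change (stimulated over unstimulated, y axis) of the 80 tested members against their mean log2 CPM in the fitted libraries (x axis) for each stimulus comparison. Red points were called higher, blue lower and grey not called, and dotted lines mark the fold threshold of 0.5. In both CpG panels the members called higher lie below 8 log2 CPM and most others lie between 0 and -0.5.

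The response went with the level of the member. Among the 76 annotated members above 5 log2 CPM, the log2 fold change with CpG and the mean log2 CPM had a Spearman's rho of -0.56 (Pearson's r = -0.71) in Tlr9het and -0.24 (r = -0.51) in Tlr997. With CL097 in Tlr779 they had a rho of -0.26 (r = -0.53). These are descriptions across genes that share libraries. Transcript length, GC content and the unique share of the sequence had rho between -0.29 and 0.14 with the log2 fold change in these comparisons. Members of which any protein-coding GENCODE transcript began with the TOP letters had a median of -0.24 (20 members) in Tlr9het, and the others -0.20 (56). In Tlr997 these medians were -0.22 and -0.24. This split follows annotated transcript starts and not starts measured in these cells, so it does not show which members lack the motif.

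The members called higher were of different kinds. Rps27l and Rpl7l1 are paralogs of ribosomal proteins, Rps27l also a target of p53, and Rpl7l1 is known from the assembly of the large subunit. Rps27l was at 4.39, 4.65 and 4.63 log2 CPM in unstimulated Tlr9het and at 5.87, 6.02 and 6.07 with CpG. In Tlr997 it was at 4.66, 4.87 and 5.07 unstimulated and at 6.12, 6.14 and 6.03 with CpG. The groups stood apart in both, at a log2 fold change of 1.43 ± 0.11 (SE, adjusted p = 4.19e-08, limma), or 2.69-fold, in Tlr9het and 1.24 ± 0.11 (adjusted p = 2.15e-07, limma), or 2.35-fold, in Tlr997.

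Rpl7l1 was at 6.85, 6.95 and 6.96 log2 CPM in unstimulated Tlr9het and 7.89, 8.09 and 7.92 with CpG, and at 7.07, 7.05 and 7.14 and then 7.82, 7.94 and 8.01 in Tlr997. All stimulated libraries were higher than all unstimulated ones. The log2 fold change was 1.05 ± 0.07 (SE, adjusted p = 8.33e-09, limma) in Tlr9het and 0.84 ± 0.07 (adjusted p = 9.47e-08, limma) in Tlr997. Its parent Rpl7 was at -0.16 ± 0.05 (adjusted p = 0.0139, limma) in Tlr9het and -0.04 ± 0.05 in Tlr997, so that the difference Rpl7l1 minus Rpl7 went from -4.08 ± 0.04 to -2.87 ± 0.10 log2 units (SD, n = 3) with CpG in Tlr9het and from -3.92 ± 0.10 to -3.04 ± 0.11 in Tlr997.

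Rpl22l1, the paralog of Rpl22, was at 6.14, 6.35 and 6.34 log2 CPM in unstimulated Tlr9het and at 6.66, 6.92 and 6.75 with CpG. In Tlr997 it was at 6.53, 6.69 and 6.61 unstimulated and at 6.68, 7.04 and 6.97 with CpG, and those groups overlapped. It was called in Tlr9het (0.50 ± 0.10, SE, adjusted p = 0.000449, limma), on the threshold, and not in Tlr997 (0.29 ± 0.10, adjusted p = 0.0188, limma). The call in Tlr9het was lost without CpG replicate 2 (0.43) or unstimulated replicate 1 (0.43), and with values centred on the median of non-members (0.499). Rpl22 was at -0.23 and -0.30 in Tlr9het and Tlr997. The difference Rpl22l1 minus Rpl22 was -2.18 ± 0.07 without and -1.45 ± 0.07 log2 units with CpG in Tlr9het (SD, n = 3), and -2.03 ± 0.15 and -1.45 ± 0.15 in Tlr997.

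Rpl29, named here after its values were seen, is a large subunit protein that was at 5.11, 5.16 and 5.38 log2 CPM in unstimulated Tlr9het and at 5.86, 5.95 and 5.999 with CpG. The change was 0.72 ± 0.09 (SE) there and 0.55 ± 0.09 in Tlr997, with no overlap in either, and it shared 75-base stretches with 43 other genes. Without unstimulated replicate 3 of Tlr997 the change in Tlr997 was 0.47 and not called.

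The other 4 calls rested on the uncertain low rows. Rpl34 was at 1.26, 0.99 and 1.29 log2 CPM in unstimulated Tlr9het and 3.08, 3.21 and 3.11 with CpG, and Rpl30 at 1.27, 0.83 and 1.15 and then 2.73, 2.80 and 2.79. The groups were apart in both genes. The log2 fold change was 1.95 ± 0.19 (Rpl34), 1.69 ± 0.41 (Rpl30), 1.60 ± 0.57 (Rps4y2) and 0.89 ± 0.22 (Rps27) in Tlr9het (SE), and 2.03 ± 0.19, 1.85 ± 0.41, 1.86 ± 0.57 and 0.86 ± 0.22 in Tlr997. With no filter on low values, Rps4y2 was not called in either genotype (adjusted p = 0.0984 and 0.0564, limma), nor was it in Tlr9het without CpG replicate 3 or unstimulated replicate 1 (adjusted p = 0.0856 and 0.108, limma). Hnrnpa1, a gene outside the set, was at a low mean of 2.79 log2 CPM and changed by 1.55 in Tlr9het. The part of gene copies in these low rows was not tested.

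**Figure D3:**
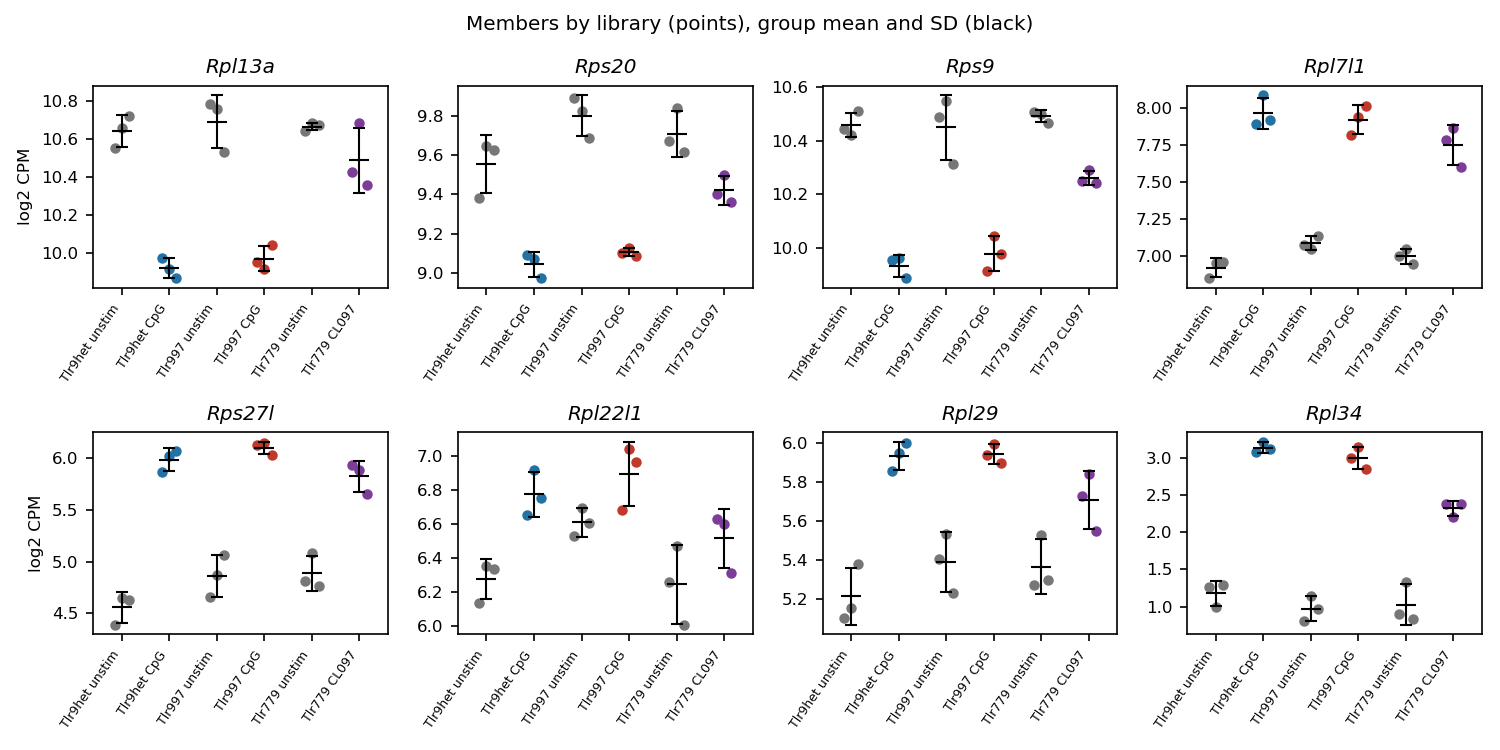
log2 CPM (y axis, a different range in each panel) of 8 members in the 6 groups (x axis); points are libraries, black lines the mean and SD (n = 3). Rpl13a, Rps20 and Rps9 were lower and Rpl7l1, Rps27l, Rpl29 and Rpl34 higher in every library with CpG than in every unstimulated library of the same genotype, while the Rpl22l1 groups overlapped in Tlr997.

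With CL097 in Tlr779 cells fewer members passed the test. None of the 80 members was called lower by limma and 5 were called higher, against 23.6% and 22.7% of 11082 genes, and 16 members were at an unadjusted p under 0.05, against 7263 of all genes. With the adjusted p alone, 6 were lower (among them Rps20, Rpl10, Rps9, Rps15a and Rplp0) and 7 higher, where the background was 31.4% and 30.2%. If the replicate numbers are taken to pair these libraries, with the number as a block, 14 were lower and 9 higher by the adjusted p. The same 0 and 5 were past the fold threshold. The background above is from the fit without the block. The share of all genes with the block was not counted, so the rise in these counts cannot be read as particular to the members. The median was -0.07 over members and -0.02 over all genes. Of the 67 members above 8 log2 CPM, 6 (9.0%) were lower by the adjusted p, against 32.4% of other genes at that level. The groups did not overlap for 15 members that were lower and 9 that were higher (background 34.9% and 32.9%).

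Without CL097 replicate 2, 2 members were called lower, among them Rpl39 at -0.53 (adjusted p = 0.022, limma). Rpl13a was at 10.65, 10.68 and 10.67 unstimulated and 10.43, 10.68 and 10.36 with CL097, which overlap, at -0.18. 

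The members called higher with CL097 were Rpl30, Rpl34, Rps27, Rps27l and Rpl7l1, and these 5 were called higher in all 3 stimulus comparisons, as 19.0% of the 11012 genes tested in each were. Rps27l went from 4.82, 5.08 and 4.77 to 5.93, 5.89 and 5.66 log2 CPM (0.94 ± 0.12, SE, adjusted p = 0.000243, limma). Rpl7l1 went from 7.00, 7.04 and 6.94 to 7.78, 7.87 and 7.60 (0.75 ± 0.08, adjusted p = 0.000105, limma). Neither gene overlapped between the groups. Rpl30 (1.84 ± 0.29), Rpl34 (1.29 ± 0.23) and Rps27 (1.04 ± 0.31) are the uncertain low rows. The Rps27 call with CL097 was lost with no filter on low values (adjusted p = 0.0739, limma). It was also lost without CL097 replicate 1 or 2 or unstimulated replicate 1 (adjusted p = 0.0637, 0.0651 and 0.0693, limma). Across the 3 stimulus comparisons 54 of the 80 members had a negative and 17 a positive log2 fold change in each, where the background was 39.8% and 40.7% of genes. The values of CpG in Tlr9het and of CL097 had a Spearman's rho of 0.79 across members, as a description, and the difference between these responses was not tested.

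The members were also read by their place in the ribosome. Their counts stand beside 47, 49 and 6 of all 80 members lower by the adjusted p with CpG in Tlr9het, with CpG in Tlr997 and with CL097, and beside 35.3%, 33.1% and 31.4% of all genes. In the P stalk, which recruits the translational GTPases, 2 of 3 members (Rplp0 and Rplp1) were lower by the adjusted p with CpG in each genotype and none was called. Rplp0, its base, was at -0.29 ± 0.08 (SE) in Tlr9het, -0.20 ± 0.08 in Tlr997 and -0.20 ± 0.06 with CL097. Rplp1 was at -0.31 and -0.33 with CpG and -0.04 with CL097, and Rplp2 at -0.01, -0.19 and -0.11. Of the 8 tested exit tunnel proteins 6 were lower by the adjusted p in each CpG comparison and 0 with CL097, and of the 8 proteins of the mRNA channel and decoding site 7, 6 and 0. All 4 X-linked members were lower by the adjusted p with CpG in both genotypes and 1 with CL097. Of the 7 parents of paralogs, 6 and 5 were lower with CpG in Tlr9het and Tlr997 and 1 with CL097, and 1, Rps27, was higher in each.

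The 5S RNP, made of Rpl5, Rpl11 and 5S rRNA, binds Mdm2 when ribosome assembly fails. Rpl5 was at 10.12, 10.16 and 10.13 log2 CPM in unstimulated Tlr9het and 9.77, 9.85 and 9.79 with CpG, and its change was -0.34 ± 0.05 (SE) in each genotype. Rpl11 was at 9.298, 9.40 and 9.45 and then 9.36, 9.35 and 9.29 in Tlr9het, which overlap. In Tlr997 it was at 9.75, 9.60 and 9.52 unstimulated and at 9.13, 9.25 and 9.35 with CpG, which do not. Its change was -0.05 ± 0.07 in Tlr9het and -0.38 ± 0.07 in Tlr997, and the difference of -0.33 (95% interval -0.55 to -0.11) did not pass the adjustment over all genes (adjusted p = 0.12, limma).

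By subunit, the median change of the 47 large subunit members tested was -0.16 in Tlr9het, -0.21 in Tlr997 and -0.04 with CL097. That of the 33 small subunit members was -0.23, -0.26 and -0.09.

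Ribosomal proteins outside the naming rule were read beside the set. Of 4 such genes tested, 2 were called lower with CpG in Tlr997, and 0 were called in Tlr9het or with CL097. Of all genes, 26%, 28.2% and 23.6% were called lower there. By the adjusted p alone, 1, 2 and 0 were lower in Tlr9het, Tlr997 and with CL097, and 1 was higher in each. The background was 35.3%, 33.1% and 31.4% lower and 37.3%, 38% and 30.2% higher. Fau, which encodes eS30 fused to a ubiquitin-like protein, was at -0.47 ± 0.08 (SE) with CpG in Tlr9het and at -0.51 ± 0.08 in Tlr997, where it was called.

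Many genes that handle the ribosomal proteins rose in the same libraries. Of 14 chaperones and importers, 10 rose and 0 fell past the thresholds in Tlr9het cells given CpG, 9 and 0 in Tlr997, and 9 and 0 with CL097. Of all genes, 29.7%, 29.6% and 22.7% were called higher and 28.2%, 26% and 23.6% lower in these comparisons. The list had medians of 1.06, 1.02 and 0.65. The largest changes in Tlr9het were those of Rrs1, which brings the 5S RNP to the precursor of the large subunit (2.28 ± 0.05, SE), Grwd1, the chaperone of Rpl3 (2.27 ± 0.06), and Heatr3, which imports Rpl5 (1.86 ± 0.08). In Tlr997 they were Grwd1 (1.99), Rrs1 (1.81) and Tsr2, the chaperone of Rps26 (1.63). Their clients Rpl3, Rpl5, Rpl11 and Rps26 were not called in any comparison. By the adjusted p alone, Rpl3 (-0.256 and -0.305) and Rpl5 (-0.335 and -0.337) were lower with CpG in Tlr9het and Tlr997. Rpl11 was lower only in Tlr997 (-0.378) and Rps26 only in Tlr9het (-0.232), and none of these clients passed with CL097.

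Of 15 tested factors of subunit maturation, 12 were called higher in each of the stimulus comparisons and 1, Xpo1, lower with CpG in Tlr9het. The background was the same, 29.7%, 29.6% and 22.7% called higher and 28.2%, 26% and 23.6% lower. The medians were 1.25, 1.18 and 0.96. The largest changes were those of Bysl and Pno1, which act on the small subunit, and Mrto4, which holds the place of Rplp0 on the nascent large subunit. In Tlr9het they were 2.48 ± 0.08 (Bysl), 2.29 ± 0.08 (Mrto4) and 2.09 ± 0.10 (Pno1), in Tlr997 2.13, 1.93 and 1.92, and with CL097 1.96, 1.61 and 1.55. 

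**Figure D4:**
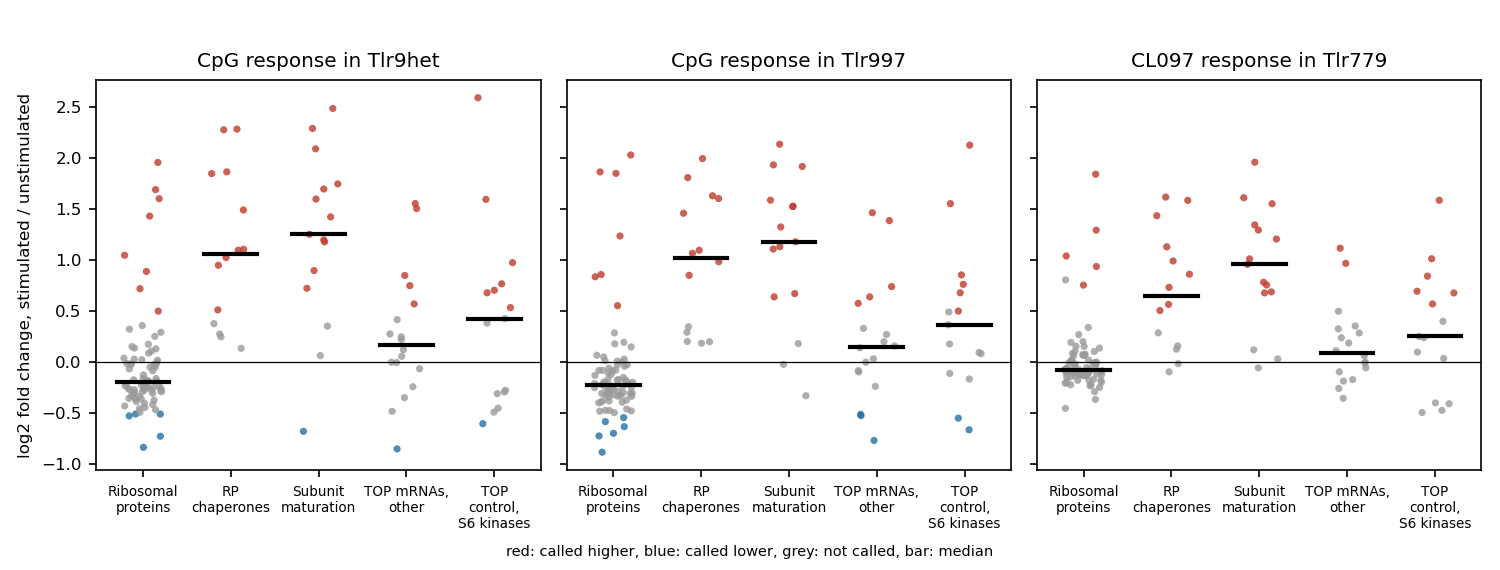
log2 fold change (y axis) of single genes (points) in the ribosomal proteins and in the 4 lists of genes that serve or regulate them (x axis), for each stimulus comparison. Bars are medians, red points were called higher and blue lower. The medians of the chaperones and of the maturation factors were 1.06 and 1.25 with CpG in Tlr9het, that of the ribosomal proteins -0.20.

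Other mRNAs with a TOP motif did not share one direction. Of 18 listed, 5 rose and 1 fell past the thresholds in Tlr9het cells given CpG, 5 and 3 in Tlr997, and 2 and 0 with CL097. With 29.7%, 29.6% and 22.7% of all genes called higher and 28.2%, 26% and 23.6% lower, these counts were near or under the background. Npm1, a nucleolar chaperone, was at 1.503 ± 0.06 (SE), 1.46 ± 0.06 and 0.97 ± 0.08, Eef1d at 0.85 in Tlr9het, and Eef2, which encodes the translocation factor, at -0.85 in Tlr9het and -0.77 in Tlr997. Of 15 genes that control TOP mRNAs or phosphorylate Rps6, 7 were called higher and 1 lower in Tlr9het, 6 and 2 in Tlr997 and 6 and 0 with CL097. The shares of all genes were again 29.7%, 29.6% and 22.7% higher and 28.2%, 26% and 23.6% lower. Larp1, which binds the TOP motif, was at 1.59 ± 0.06, 1.55 ± 0.06 and 1.58 ± 0.09. Eif4ebp1, an inhibitor of cap-dependent initiation, was at 2.59 ± 0.14, 2.12 ± 0.14 and 0.84 ± 0.15, and Mtor at 1.01 ± 0.12 with CL097.

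Without stimulation, most members had a slightly higher mean in Tlr997 than in Tlr9het, but no single one passed the test. By library the groups overlapped, with summed shares of 7.23%, 7.41% and 6.76% in Tlr997 and 6.53%, 6.78% and 6.94% in Tlr9het. The library medians over members overlapped as well. Members were read in the same libraries, so their counts below are descriptions and not independent replicates. By limma 0 were called in either direction, where 0.0174% of all genes were called higher and 0% lower. At an unadjusted p under 0.05 there were 34 of 80 members, against 1237 of 11494 genes. The log2 difference was positive for 71 and negative for 9, with a median of 0.11 against -0.01 over all genes. The 3 Tlr997 libraries lay above the 3 Tlr9het libraries for 28 members (background 6.59%) and below for 0 (background 6.99%). Without Tlr997 replicate 3 the median was 0.15. The difference went with the level of the member (Spearman's rho -0.68 over 76 annotated members above 5 log2 CPM, as a description across genes that share the libraries).

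The largest difference in size was that of the uncertain low row Rpl30 (-0.64, 95% interval -1.53 to 0.24), whose groups overlapped. The largest positive difference was that of Rpl39, at 7.33, 7.63 and 7.72 log2 CPM in Tlr9het and 8.14, 7.88 and 7.84 in Tlr997, which do not overlap (0.40, 95% interval 0.16 to 0.63, adjusted p = 0.323, limma). Rpl22l1 followed at 0.33 (0.12 to 0.55). Rpl4, which has the highest mean log2 CPM of the set, was at 11.96, 11.85 and 11.998 in Tlr9het and 11.66, 11.85 and 11.70 in Tlr997 (-0.20, -0.35 to -0.04). Its values in replicate 2 were the same to 3 decimals in both groups, as quantile normalization gives one value to one rank.

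With CpG in both genotypes, 0 members were called by limma (background 1.25% higher and 1.47% lower), and 12 were at an unadjusted p under 0.05 against 2187 of all genes. With the adjusted p alone the members gave 0 as well, where the background was 2.91% higher and 3.01% lower. The median was 0.06 against 0 over all genes, with 59 members positive and 21 negative. By library the summed shares did not overlap here, at 5.94%, 6.04% and 6.03% in Tlr997 and 5.69%, 5.81% and 5.64% in Tlr9het. The library medians over members did overlap. Libraries of Tlr997 lay wholly above those of Tlr9het for 23 members (background 14.6%) and wholly below for 3 (background 15.4%).

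**Figure D5:**
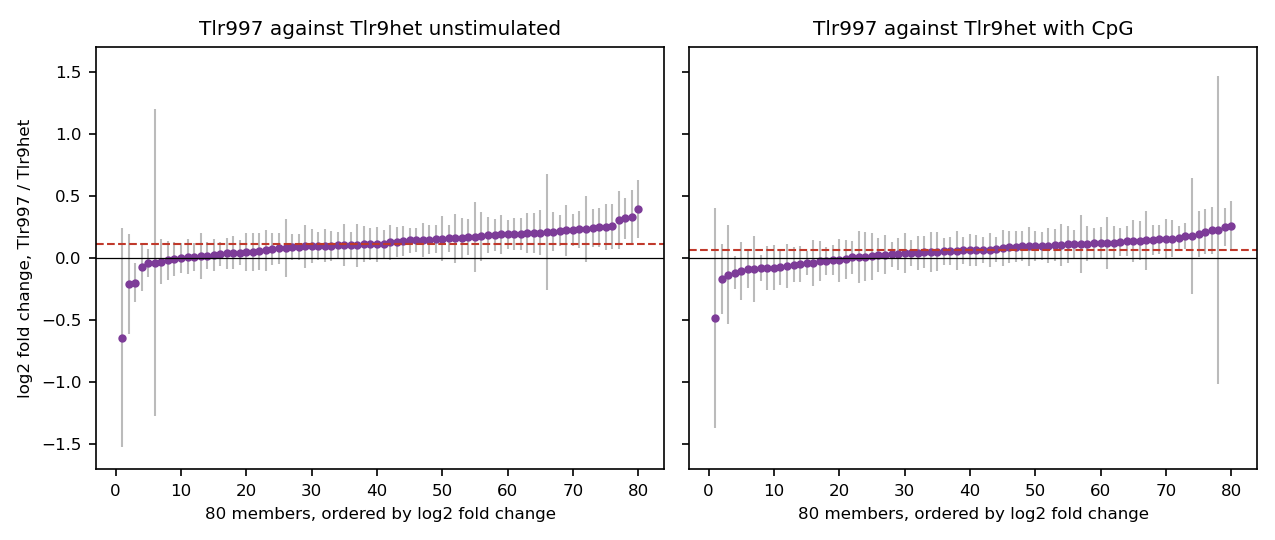
log2 fold change of Tlr997 over Tlr9het (y axis) for the 80 tested members in order of size (x axis), without stimulation and with CpG. Points are estimates, grey lines their 95% intervals and the dashed line the median, 0.11 without and 0.06 with CpG.

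The responses to CpG were also compared directly, as the response in Tlr997 minus that in Tlr9het. This comparison uses the same libraries as the others of its arm. By limma 0 members were called (background 0.687% higher and 0.853% lower), 10 were at an unadjusted p under 0.05 against 1839 of all genes. The adjusted p alone also gave 0 (background 0.94% and 1.14%), and the median was -0.05 against 0.01. Estimates ran from -0.34 for Rpl36 (95% interval -0.74 to 0.07) to 0.30 for Rps14 (0.03 to 0.56), both named after their values were seen. Without unstimulated replicate 3 of Tlr997, 1 member, Rpl36, was called lower, at -0.52 (adjusted p = 0.0379, limma).

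Cell purity was read from marker lists. The 9 B cell markers summed to 6325 to 8295 CPM in unstimulated libraries. With stimulation they summed to 2161 to 2282 CPM in Tlr9het, 3272 to 4001 CPM in Tlr997 and 2852 to 3682 CPM in Tlr779, and 7, 5 and 6 of 9 were called lower. Of all genes, 28.2%, 26% and 23.6% were called lower in these stimulus comparisons. Between the genotypes with CpG, 4 of 9 were called higher in Tlr997, against 1.25% of all genes. None of the 9 B cell markers was below 0 log2 CPM throughout a group. The sum of the 5 plasma cell markers was higher with stimulation (1082 to 1652 against 2111 to 2633 CPM), but 3 of 5 were called lower in each stimulus comparison and 1, Irf4, higher. The 8 T cell markers summed to 62.0 to 91.6 CPM without and 86.0 to 122.5 CPM with CpG in Tlr9het, to 60.0 to 76.3 and 79.8 to 90.8 in Tlr997, and to 52.9 to 73.9 and 57.8 to 100.5 without and with CL097 in Tlr779. With CpG 2 of 8 T cell and 2 of 3 tested NK cell markers were called higher in each genotype. Of all genes, 29.7% (Tlr9het) and 29.6% (Tlr997) were called higher there, and 1 T cell marker was called lower in Tlr9het. The NK cell sum was 1.8 to 10.7 CPM over all libraries. The macrophage sum (8 markers) was 215.1 to 288.8 without and 154.3 to 196.7 with CpG in Tlr9het, and overlapped between unstimulated and stimulated libraries in Tlr997 and Tlr779. Over all libraries neutrophil markers (7) summed to 19.1 to 184.6 CPM and erythroid markers (6) to 12.3 to 484.4 CPM. The 5 plasmacytoid dendritic cell markers, which include genes B cells express, had higher sums with stimulation. They went from 842.8 to 881.8 CPM to 992.8 to 1119.6 CPM in Tlr9het and from 867.1 to 924.2 to 930.5 to 1070.7 in Tlr997. In Tlr779 they went from 816.6 to 868.8 to 962.8 to 1037.2 CPM. In each stimulus comparison 2 of these 5 were called higher and 1 lower, where 29.7%, 29.6% and 22.7% of all genes were called higher. The part of any of these in the changes of the ribosomal proteins was not tested.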

How the data were processed

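B cells of 6 groups of 3 libraries were sequenced as stranded mRNA (paired 75-base reads). Per the submitters' processing notes and the methods, the authors trimmed reads with Trim Galore (0.6.5), aligned them to mm10 (GRCm38) with STAR (2.6.1a), counted genes with featureCounts (Subread 2.0.1), and applied quantile normalization and voom. The deposited values were log2 CPM, 1 file per library, without counts, so the depth of each library is unknown and no counting interval was computed. Reads that map to several copies of a gene can be lost or divided by the counting, whose setting is not given in the sources used here.

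Groups came from the sample titles. limma (3.58.1, R 4.3.3) was fitted with a variance trend to the log2 CPM of all tested genes, the 12 libraries of the Tlr7-/- arm in 1 model and the 6 Tlr779 libraries in another, with no pseudocount added. Genes above 0 log2 CPM in at least 3 fitted libraries were tested, p-values were adjusted over all of them (Benjamini-Hochberg), and calls had to reach an adjusted p under 0.05 with a log2 fold change beyond 0.5 in either direction. P-values measure the spread between these libraries. The fits were tested on simulated data. Named members were the called ones with the 5 largest and 5 smallest changes in each comparison and those of the P stalk, 5S RNP and paralog lists, and named other genes the 3 largest called changes of a list. The members and lists were chosen with earlier results of these data known.

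Libraries with the same replicate number deviated together over all tested genes in Tlr9het (r = 0.51, 0.29 and 0.51) and Tlr779 (r = 0.25, 0.49 and 0.33). Their numbers were taken as pairs on this ground, as the titles give only the number. This was not so in all of Tlr997 (r = 0.37, 0.08 and 0.03). Over the members alone, r in Tlr779 was -0.065, 0.095 and 0.36. Near-silent genes such as Rpl26 held the same value for each number in 5 of 6 groups, so an offset per number may have been removed before deposit. Transcript sequences were GENCODE M21 and promoters RefSeq (GRCm38.p6). Alternatives varied the block, filter, centring, trend, fold threshold, libraries in the model and single replicates. Values of some genes are not reported here.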

Additional observations from a re-analysis of the deposited data

How the results depend on the processing

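Under the alternatives, 324 counts and medians over members were labelled the same and 15 moved, by a rule with no label for a reversal. Among the single members followed, no called change reversed its sign. With no fold threshold the calls became 13 higher and 47 lower for CpG in Tlr9het, 49 lower in Tlr997 and 6 lower with CL097, since most member changes are under 0.5. With a log2 fold change over 1 they became 5 higher and 0 lower in Tlr9het, 4 higher and 0 lower in Tlr997 and 3 higher with CL097. A filter over 2 log2 CPM left 3 higher with CL097, because Rpl30 and Rps27 were no longer tested. Leaving out 1 library gave 6 to 8 higher and 3 to 6 lower in Tlr9het, 6 to 7 higher and 5 to 10 lower in Tlr997, 4 to 5 higher and 0 to 2 lower with CL097, and 0 to 1 lower for the difference of responses. The value of 3 in Tlr9het came without unstimulated replicate 2 or 3 and lost Rps20 with Rps4x or Rps9. The value of 10 came without unstimulated replicate 3 of Tlr997, and that of 2 without CL097 replicate 2. The cause of these shifts was not tested. The median over members stayed within -0.23 to -0.17 in Tlr9het, -0.26 to -0.20 in Tlr997 and -0.11 to -0.02 with CL097. With the replicate block the counts past the fold threshold remained 8 and 5, 7 and 6, and 5 and 0, and it changed no other count past the fold threshold. A block within genotype gives no genotype comparison, because the numbers are nested in the genotypes, so those used the block shared across the arm. The pooled SD of the library median over members was 0.08 log2 units, and rows at low level or with shared sequence are limited by unknown depth and by how reads of gene copies were counted.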
